A study of Mus musculus with 6 samples.

Results

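The genes described here are the machinery of DNA replication and cell division in E14 mouse embryonic stem cells, an established line, after knockdown of Tdg. They were chosen by name as a list of 40 genes, of which 39 have an array row that the platform annotation gives to that gene alone, out of 19938 named genes. For a gene with several such rows, the row with the highest mean over all arrays was used. Ccnb1, the mitotic cyclin B1, has no such row, and its expression was not analysed here. By role, the 39 are 14 origin licensing and helicase genes, 10 genes of the replication fork, nucleotide supply and chromatin assembly, 7 genes of S phase entry, and 8 genes of mitosis and proliferation.

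Whole-transcript arrays measured total RNA in 3 Tdg knockdown samples and 3 control samples of E14 cells. All 6 were grown on 0.1% gelatin in 15% serum with leukemia inhibitory factor at 1000 units/ml, received lentiviral vector (multiplicity of infection 10), and were put under puromycin at 2 ug/ml after 48 h. The labels do not say what the control vector carries, nor whether replicates were separate cultures, and p-values therefore cover only the spread among these arrays, which can be technical. The extraction protocol names Kdm2b knockdown cells, while titles and design name Tdg.

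Cells copy their DNA once per cycle by separating licensing from firing. In G1 the origin recognition complex, with Cdc6 and Cdt1, loads the Mcm2 to Mcm7 ring onto origins. At S phase entry cyclin E with Cdk2 helps Cdc45 and the GINS complex turn the ring into the active helicase, while geminin (Gmnn) blocks further loading. E2F factors drive transcription of many of these genes, and a later wave, acting through the DREAM and MuvB complexes at CHR promoter elements, serves mitosis. Mouse embryonic stem cells cycle fast, with a short G1 and high cyclin E activity. TDG, thymine DNA glycosylase, is tied to this cycle at the protein level, since the PCNA-dependent ubiquitin ligase that destroys Cdt1 also destroys TDG in S phase.

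The letters at the promoters were compared by role. Windows from 250 bases before to 50 bases after a gene start were taken from RefSeq (GRCm38.p6), and 32 of the 40 listed genes had at least 1. They were searched on both strands for the E2F forms TTTCCCGC, TTTGGCGC, TTTCGCGC and TTTGCCGC, for the CHR form TTTGAA, and for CCAAT. The 32 genes had 35 windows, and an E2F form was in 13 of them, against 2.26% of all 32851 windows. By gene, it was in 7 of 10 licensing genes, 2 of 9 fork genes, 3 of 5 genes of S phase entry and 1 of 8 mitosis genes. These 8 mitosis genes include Ccnb1, which has no array row of its own, and lack Aurkb, which had no window. The CHR form was in 10 of the 35 windows, against 17.9% of all windows. By gene, it was in 2 of 10 licensing genes, 0 of 9 fork genes, 2 of 5 genes of S phase entry and 6 of 8 mitosis genes. The differences between roles were not tested. CCAAT was in 28 of the 35 windows, against 37.4% of all windows. The 35 windows held 7 to 48 CG dinucleotides each, with a median of 24, against a median of 7 over all windows. Each E2F form itself holds a CG, and the sets of windows were not matched for CG content. Below are the 250 bases before the start of 3 genes, chosen to show an E2F form alone, both forms, and the CHR form alone, each on its own gene's strand and 5′ to 3′, with E2F and CHR matches in capitals. No match overlaps another in these stretches. Orc1 was picked for the largest difference in size between knockdown and control among licensing genes with an E2F form in these bases. Top2a was picked likewise among mitosis genes with a CHR form.
Orc1, chr4:108579204-108579453, plus strand, with an E2F form read on the opposite strand: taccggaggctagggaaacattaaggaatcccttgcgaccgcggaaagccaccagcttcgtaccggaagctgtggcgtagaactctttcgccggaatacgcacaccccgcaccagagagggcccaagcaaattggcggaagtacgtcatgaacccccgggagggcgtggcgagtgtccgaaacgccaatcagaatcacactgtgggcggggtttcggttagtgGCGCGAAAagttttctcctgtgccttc
Cdk1, chr10:69352913-69353162, minus strand, with an E2F form and 2 CHR matches: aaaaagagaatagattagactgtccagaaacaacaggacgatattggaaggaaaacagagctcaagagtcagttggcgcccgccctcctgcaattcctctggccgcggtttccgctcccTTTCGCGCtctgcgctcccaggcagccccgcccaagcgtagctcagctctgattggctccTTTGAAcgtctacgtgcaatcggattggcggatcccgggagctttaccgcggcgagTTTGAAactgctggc
Top2a, chr11:99024190-99024439, minus strand, with a CHR match on each strand: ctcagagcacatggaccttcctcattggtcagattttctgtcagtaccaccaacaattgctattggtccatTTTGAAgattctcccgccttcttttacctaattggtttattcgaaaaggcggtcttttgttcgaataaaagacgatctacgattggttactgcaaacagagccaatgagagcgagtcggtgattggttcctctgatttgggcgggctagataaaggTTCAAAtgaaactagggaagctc
A match describes these letters and is not a measured site.

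Tdg itself was low in every knockdown array. The mean of the 4 rows that list Tdg together with its pseudogene Tdg-ps2 was 8.24, 8.16 and 7.92 (log2 signal) in knockdown cells, against 11.12, 11.20 and 11.10 in controls. The difference was -3.03 ± 0.09 (log2, SE), or 12.2% of the control signal (limma adjusted p 8.79e-05). An exact two-sided permutation test gave p = 0.1, the smallest that 3 arrays against 3 allow. Embryonic stem cell identity was checked on 10 markers, among them Pou5f1, Nanog, Sox2 and Esrrb. Their group means lay between 10.40 and 13.35, with a median difference of 0.01, and none passed the threshold. Of the markers of other cell types, Pax6 rose (0.93), while the summed log2 signal of the 6 neural markers was 53.84 to 55.13 in knockdown cells and 53.46 to 54.09 in controls. Within that sum Nes (-0.60, limma adjusted p 0.0845) and Neurod1 (-0.48, 0.195) had every knockdown array below every control, and Nes passed with the replicate number as a block (0.0245), without knockdown replicate 3 (0.0405) and with a trended, robust prior (0.0301). Tubb3 (0.36) and Map2 (0.37) had every knockdown array above every control and passed with the block (limma adjusted p 0.0423 for both). No fibroblast, endoderm or trophoblast marker passed in the main limma fit, which had no block. Pdgfrb of the fibroblast list (-0.26, limma adjusted p 0.0697 with the block) had every knockdown array below every control. Foxa2 of the endoderm list (0.15) and the stem cell marker Klf4 (0.09) had every knockdown array above every control. With the block the trophoblast list's keratin genes Krt8 (-0.38, limma adjusted p 0.0329) and Krt18 (-0.32, 0.0445) passed, as they did with the trended, robust prior (0.0481 and 0.0154). The same list held Hand1 at 0.32, with every knockdown array above every control (limma adjusted p 0.0572 with the block). Elf5 differed by 0.17, Cdx2 by 0.02 and Tfap2c by -0.12. Over all named genes 7.98% had every knockdown array above every control, and 11.0% had every one below. Of the 19938 named genes 3.08% passed with the block, 1.46% without knockdown replicate 3 and 446 genes with the trended, robust prior. The part of any of these marker differences in the results below was not tested.

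Replication and cell cycle genes lay close to the controls in Tdg knockdown cells. None of the 39 measured members passed an adjusted p of 0.05 in limma, where 0.792% of all named genes did. Their differences, knockdown minus control, ran from -0.21 for Mcm3 to 0.44 for Ccne2 on the log2 scale, with a median of -0.02, against a median of 0.02 over all named genes. The median size of a difference was 0.05 for the members and 0.09 for all named genes. The 2 sets were not matched for signal. The lowest member value, 7.86 for Gmnn in knockdown replicate 3, lay above the array medians (7.41 to 7.48), while the named genes include dimmer rows. The lowest adjusted p was 0.139, for Ccne2. At an unadjusted p under 0.05 there were 5 members higher, where 5.03% of all named genes were, and 1 lower, where 7.48% were. For 38 of the 39 the 95% interval of the difference lay within a 1.5-fold change either way (0.58 on the log2 scale), as it did for 93.7% of all named genes. The exception was Ccne2. These intervals are those of single genes and are not widened for the number of genes. In bulk RNA, fewer cells in a phase of the cycle and less RNA per cell cannot be told apart.

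**Figure D1:**
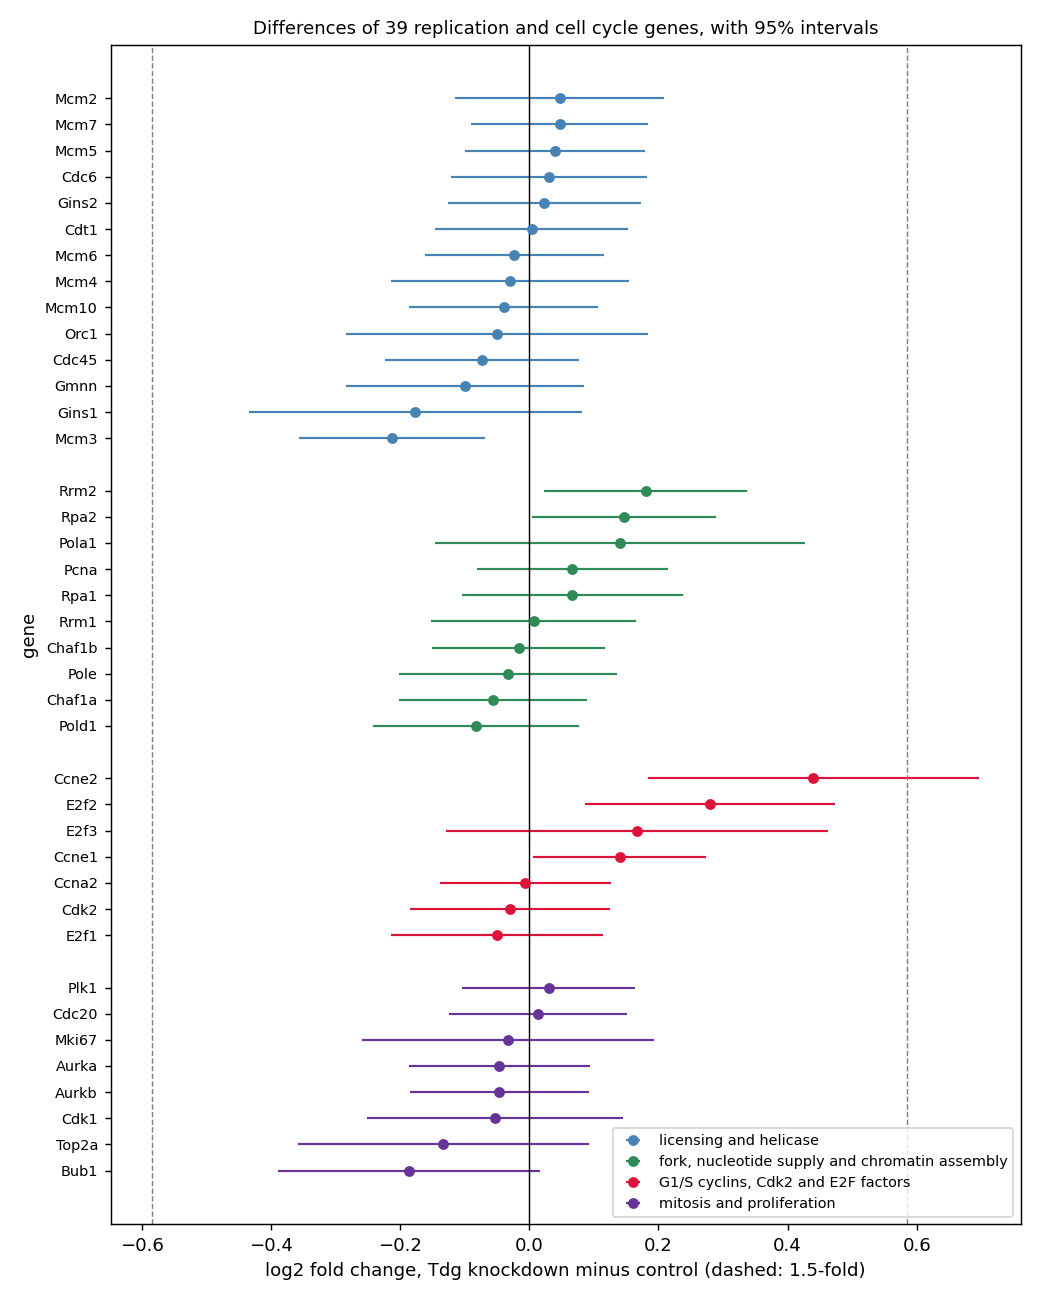
Log2 fold change (x axis, Tdg knockdown minus control) of the 39 measured members (y axis) with 95% intervals from limma, grouped and coloured by role, with dashed lines at a 1.5-fold change. The intervals of Ccne2, E2f2, Rrm2, Rpa2 and Ccne1 lie above 0 and that of Mcm3 lies below it, before any adjustment for the number of genes, and the interval of Ccne2 alone crosses a dashed line.

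The genes of S phase entry held the largest difference. Ccne2 encodes cyclin E2, a partner of Cdk2 at the start of S phase. Its log2 signal was 9.34, 9.32 and 9.00 in knockdown arrays, against 8.90, 8.74 and 8.70 in controls. Every knockdown array lay above every control array, and the arrays numbered 3 were the lowest of their groups. The difference was 0.44 ± 0.11 (log2, SE), a 1.36-fold higher mean signal, with a 95% interval of 0.18 to 0.70 (limma adjusted p 0.139). With the replicate number as a block the same difference had a limma adjusted p of 0.0368, and Ccne2 was the only member past the threshold, where 3.08% of all named genes passed. Within the pairs of equal number the differences were 0.44, 0.58 and 0.30. Without knockdown replicate 3 the difference was 0.55 (limma adjusted p 0.0288), and again no other member passed, where 1.46% of all named genes did.

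Ccne1, which encodes the other E-type cyclin, differed less. It had 12.31, 12.32 and 12.26 in knockdown arrays, against 12.15, 12.16 and 12.16 in controls. The groups did not overlap, and the difference of 0.14 ± 0.06 (log2, SE) did not pass (limma adjusted p 0.377). E2f2, an activating E2F factor, had 8.72, 8.87 and 8.88 in knockdown arrays, against 8.47, 8.49 and 8.67 in controls. Here too the groups did not overlap, although control replicate 3 came within 0.05 of knockdown replicate 1, and the difference was 0.28 ± 0.08 (limma adjusted p 0.209, or 0.0678 with the block). E2f3, another activating factor, had 10.18, 10.11 and 9.76 in knockdown arrays, against 10.00, 9.81 and 9.74 in controls. Its groups overlapped through knockdown replicate 3, and its difference was 0.17 ± 0.13 (limma adjusted p 0.683). Without that array the difference was 0.30 (limma adjusted p 0.181). A further row of E2f3 differed by 0.14. The remaining 3 genes of this role lay close to 0. E2f1 differed by -0.05, Cdk2, the kinase that the E and A cyclins activate, by -0.03, and Ccna2, the S phase and mitotic cyclin A2, by -0.01. Ccna2 spanned only 12.38 to 12.42 over all 6 arrays, with an interval of -0.14 to 0.13.

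**Figure D2:**
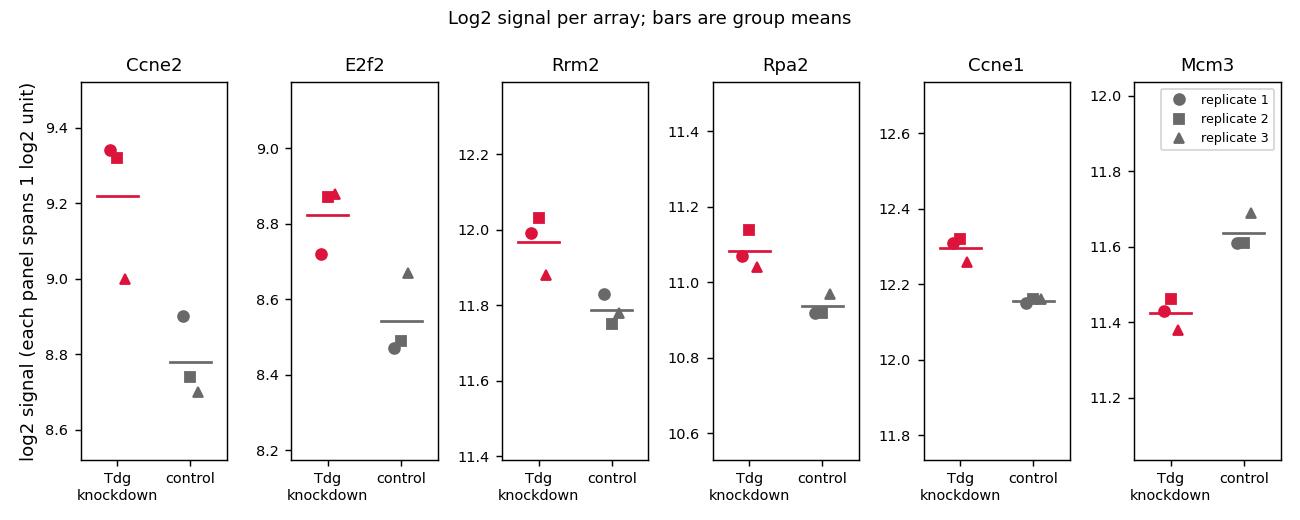
Log2 signal (y axis, each panel 1 log2 unit high) in each Tdg knockdown and control array for the 6 members with an unadjusted p under 0.05, with markers for the replicate number and bars for group means. Selection by that p favours groups that do not overlap, and none overlap in these 6 panels. Over all named genes, groups did not overlap for 7.98% with higher and 11.0% with lower knockdown signal. Ccne2 shows the widest gap between means (9.22 in knockdown cells and 8.78 in controls).

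Among the 10 fork genes, the nucleotide supply enzyme gene Rrm2 and the single-strand binding protein gene Rpa2 had every knockdown array above every control. So did 7.98% of all named genes. Rrm2, the regulated subunit of ribonucleotide reductase, had 11.99, 12.03 and 11.88 in knockdown arrays, against 11.83, 11.75 and 11.78 in controls. Knockdown replicate 3 came closest to the controls, and the difference of 0.18 ± 0.07 (log2, SE) did not pass (limma adjusted p 0.329). Its partner Rrm1, the large subunit, differed by 0.01. Rpa2 had 11.07, 11.14 and 11.04 in knockdown arrays, against 10.92, 10.92 and 10.97 in controls. The difference was 0.15 ± 0.06 (limma adjusted p 0.387), beside 0.07 for Rpa1 of the same complex. The sliding clamp gene Pcna differed by 0.07, and its further row by 0.08. The catalytic subunits of the replicative polymerases differed by 0.14 for Pola1, -0.08 for Pold1 and -0.03 for Pole. Pola1 varied most within the groups, with 10.47, 10.39 and 10.08 in knockdown arrays and 10.32, 10.17 and 10.03 in controls, and its difference was 0.26 without knockdown replicate 3. The chromatin assembly factor genes Chaf1a and Chaf1b, whose products deposit histones behind the fork, differed by -0.06 and -0.02. Over these 10 genes 6 lay above 0 and 4 below, where 55.4% and 43.5% of all named genes were. All 10 intervals stayed within a 1.5-fold change.

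Most licensing genes lay close to the controls, with Mcm3 and Gins1 the furthest below. Mcm3, a subunit of the helicase ring, had 11.43, 11.46 and 11.38 in knockdown arrays, against 11.61, 11.61 and 11.69 in controls. Every knockdown array lay below every control array. The difference was -0.21 ± 0.06 (log2, SE, 95% interval -0.36 to -0.07), with a limma adjusted p of 0.196, or 0.116 with the block. With a trended, robust prior Mcm3 passed (limma adjusted p 0.0415), where 446 of 19938 named genes did. The other 5 subunits of the ring, which work with Mcm3 in a fixed ratio in the loaded hexamer, lay closer to 0. Mcm2 differed by 0.05, Mcm4 by -0.03, Mcm5 by 0.04, Mcm6 by -0.02 and Mcm7 by 0.05, and the groups of all 5 overlapped. Whether Mcm3 differs from these 5 was not tested.

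Gins1, a subunit of the GINS complex of the active helicase, had 10.22, 10.30 and 9.92 in knockdown arrays, against 10.41, 10.33 and 10.23 in controls. Knockdown replicate 3 was the lowest, and the groups overlapped. The difference was -0.18 ± 0.11 (limma adjusted p 0.606) and -0.06 without that array. Its partner Gins2 differed by 0.02, and Cdc45, the third part of the active helicase, by -0.07. The loaders lay near 0, with 0.03 for Cdc6, 0.00 for Cdt1 and -0.05 for the origin complex subunit Orc1. Gmnn, which restrains Cdt1, differed by -0.10 and the initiation factor gene Mcm10 by -0.04. All 14 licensing genes had intervals within a 1.5-fold change. Of these genes 6 lay above 0 and 8 below, where 55.4% and 43.5% of all named genes were.

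The mitosis genes lay close to the controls, with a median difference of -0.05, or -0.01 without knockdown replicate 3. Bub1, a kinase of the spindle checkpoint, had 11.90, 11.88 and 11.66 in knockdown arrays, against 12.04, 12.05 and 11.91 in controls. The groups did not overlap, but knockdown replicate 1 and control replicate 3 were only 0.01 apart. The difference was -0.19 ± 0.09 (log2, SE, limma adjusted p 0.446), and -0.11 without knockdown replicate 3. Top2a, the topoisomerase that untangles sister chromatids, had 12.00, 11.98 and 11.73 in knockdown arrays, against 12.13, 12.05 and 11.93 in controls, and differed by -0.13 ± 0.10, or by -0.05 without knockdown replicate 3. A second, dim row of Top2a with signals of 4.45 to 5.95 differed by -0.40, so the 2 rows agree in sign but not in size. Cdk1, the mitotic kinase, differed by -0.05, and the proliferation marker gene Mki67 by -0.03. Aurka and Aurkb, kinases of the spindle and of chromosome attachment, both differed by -0.05. Plk1, a kinase of mitotic entry, differed by 0.03 and Cdc20, an activator of the anaphase-promoting complex, by 0.01. Of these 8 genes 2 lay above 0 and 6 below, where 55.4% of all named genes lay above and 43.5% below. Without knockdown replicate 3 there were 4 above and 4 below, where 48.2% and 51.2% of all named genes were. All 8 intervals stayed within a 1.5-fold change.

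Over all 39 members, groups did not overlap for 5 with higher knockdown signal, where 7.98% of all named genes had this, and for 2 with lower signal, where 11.0% did. The higher 5 were Ccne2, E2f2, Ccne1, Rrm2 and Rpa2, and the lower 2 were Mcm3 and Bub1. In the pairs of equal number 11 members were higher in all 3 pairs, where 22.0% of all named genes were, and 7 were lower in all 3, where 21.2% were. By promoter, the 13 members with an E2F form had a median difference of 0.00 (range -0.21 to 0.28) and the 18 members whose windows lack it a median of 0.00 (range -0.19 to 0.18). The 10 members with a CHR form had a median of -0.01. Orc1 and Top2a, shown above for their promoters and picked by the size of their differences, differed by -0.05 and -0.13.

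**Figure D3:**
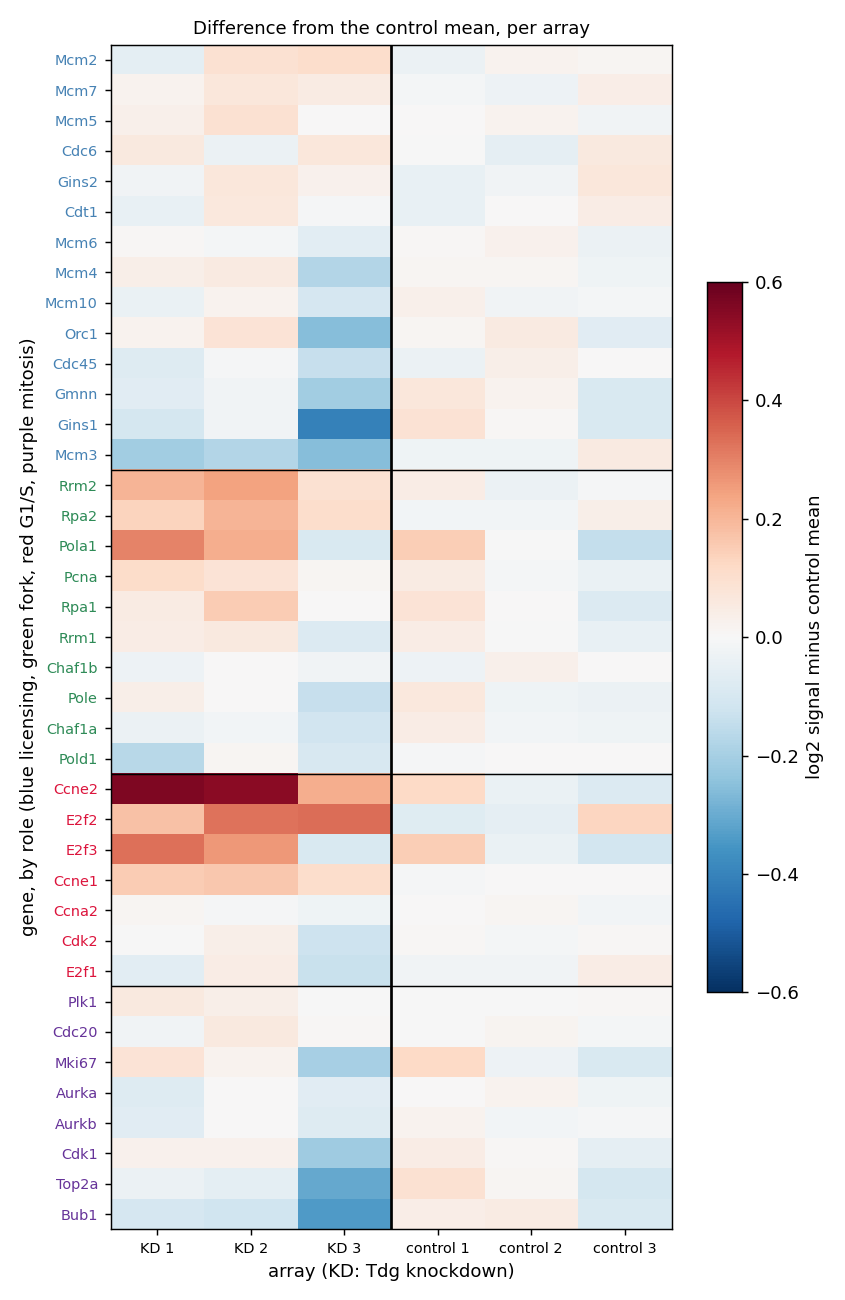
Log2 signal of each member (rows, by role) in each array (columns, Tdg knockdown left of control) minus the mean of the 3 control arrays, on a colour scale from -0.6 to 0.6. Ccne2 is high in all 3 knockdown arrays, Mcm3 is low in all 3, and knockdown replicate 3 is lower than the other knockdown arrays for 29 of the 39 genes.

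The members also varied within the groups. The median SD of a member was 0.08 over the 3 knockdown arrays and 0.04 over the 3 controls, against 0.12 and 0.08 for all named genes. These sets were not matched for signal. Knockdown replicate 3 lay lowest for most of them. Relative to the control mean, the median member stood at 0.01 and 0.04 in knockdown replicates 1 and 2 and at -0.08 in replicate 3, while the median over all named genes in those arrays was 0.00, 0.00 and 0.03. In 29 of 39 members knockdown replicate 3 was below both other knockdown arrays (74.4%), against 40.6% of all named genes. The same held for 101 of 128 other replication and cell cycle genes (78.9%). Control replicate 3 was below both other controls in 21 of 39 members, against 5944 of the 19938 named genes. Returning to the members, knockdown replicate 3 was also compared with the mean of the other knockdown arrays. It was lower than that mean by more than 0.2 for 10 members (25.6%), against 16.7% of all named genes. These 10 were Mcm4, Orc1, Gins1, Pola1, Ccne2, E2f3, Cdk1, Top2a, Mki67 and Bub1, with E2f3 at -0.39 the furthest. In control replicate 3 the same 10 genes were lower than the mean of the other controls as well, by smaller amounts, from -0.21 for Pola1 to -0.04 for Mcm4. Across the 39 members the deviations from the group mean in knockdown replicate 3 and control replicate 3 correlated at 0.82. Those in both arrays numbered 1 correlated at 0.84, and those in both arrays numbered 2 at 0.22. This is a description across genes that share the same arrays. With all arrays 18 members lay above 0 and 21 below, with a median of -0.02, where 55.4% and 43.5% of all named genes were. Without knockdown replicate 3 there were 25 above and 14 below, with a median of 0.02, where 48.2% and 51.2% of all named genes were.

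Another 130 genes of the same processes were listed, and 128 of them had a row of their own. The rest were not analysed here. Of the 128, Ccnd2 rose, and none fell, so 1 of 128 passed where 0.792% of all named genes did. The median difference was 0.00, with 62 genes above 0 and 61 below, where 55.4% and 43.5% of all named genes were. Of the 128 intervals, 125 lay within a 1.5-fold change, as did 93.7% of those of all named genes. Ccnd2 encodes cyclin D2, an activator of Cdk4 and Cdk6 in G1. Its log2 signal was 9.70, 9.76 and 9.66 in knockdown arrays, against 9.20, 9.30 and 9.31 in controls. Its groups were clear of each other by more than the spread within either, and the difference was 0.44 ± 0.06 (log2, SE, limma adjusted p 0.04). The call was lost when any array but knockdown replicate 3 was left out (limma adjusted p 0.114 to 0.234), when each array was centred on its median (0.0691) and when all rows of the table were tested (0.117). The difference itself was 0.40 to 0.46 in those fits without 1 array, 0.43 after centring and 0.44 with all rows.

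E2f8, an atypical E2F factor that represses E2F target genes, was the nearest of the rest. It had 10.21, 10.34 and 9.97 in knockdown arrays, against 9.78, 9.82 and 9.70 in controls. As with Ccne2, all knockdown arrays were higher and the arrays numbered 3 were the lowest of their groups. The difference was 0.41 ± 0.10 (log2, SE, limma adjusted p 0.142), and it passed with the replicate block (0.0392) and without knockdown replicate 3 (0.51, limma adjusted p 0.0288).

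In the other roles no gene passed in the main fit or with the block. With array weights Fen1, Asf1a, Pold4, Spc25 and Prc1 of these roles passed, where 1633 of 19938 named genes did. Of the 30 other fork genes, the flap endonuclease gene Fen1, which removes primers from lagging-strand fragments, differed by 0.23 (limma adjusted p 0.162) and the histone chaperone gene Asf1a by 0.26 (0.286). Of the 21 other licensing genes, Cdc7, a kinase that fires origins, differed by -0.29 (limma adjusted p 0.349), or by -0.16 without knockdown replicate 3, and Topbp1, a scaffold of initiation, by -0.13 (0.486). Of the 45 other mitosis genes, the kinetochore gene Spc25 differed by -0.23 (limma adjusted p 0.187) and the midzone crosslinker gene Prc1 by -0.23 (0.207). Mitosis genes of this list lay below 0 more often than above, 29 against 15, with a median of -0.03. Of all named genes 43.5% lay below 0 and 55.4% above. Without knockdown replicate 3 these mitosis genes lay above 0 more often, 28 against 16, with a median of 0.02. In that fit 48.2% of all named genes lay above 0 and 51.2% below.

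**Figure D4:**
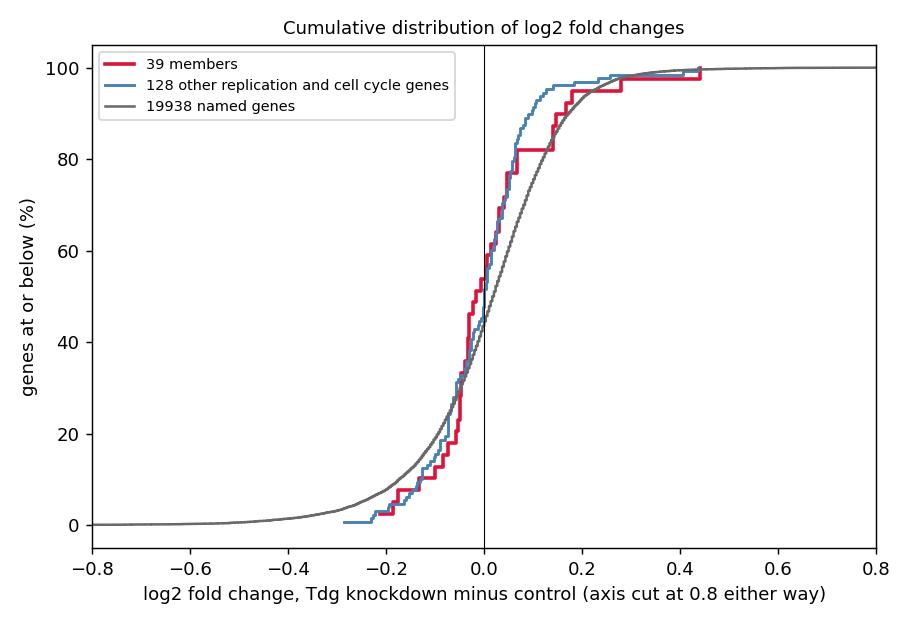
Cumulative share of genes (y axis, percent) by log2 fold change (x axis, Tdg knockdown minus control) for the 39 members, the 128 other replication and cell cycle genes and the 19938 named genes. Both cell cycle curves are steeper around 0 than that of all named genes, with medians of -0.02 and 0.00 against 0.02, and their right ends are Ccne2 and Ccnd2 at 0.44. The sets were not matched for signal.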

How the data were processed

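The authors deposited 1 log2 signal per array for each probe set. Affymetrix Expression Console made these values, as the submitters' processing notes record, while its version, summarisation and normalization are not given. The scale was judged to be log2 from the range of the values (2.26 to 14.03, array medians 7.41 to 7.48). No depth applies to arrays, and 3 per group limit the precision.

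Rows with 1 annotated gene (21789 of 35557) were named through RefSeq gene identifiers. Knockdown was compared with control in limma 3.58.1 (R 4.3.3, lmFit and eBayes, two-sided), with Benjamini-Hochberg adjustment over 19938 genes, after a check on simulated data. The members and lists were chosen with earlier results of these data known. All members are named, and of the other cell cycle genes the 2 with the smallest p per role and any past the threshold. Pold4, which passed only with array weights, is named too.

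The main limma fit had no replicate block, so its SEs, intervals and p-values are unpaired. Equal replicate numbers were treated as pairs only in the block alternative and in the differences within pairs. The reason was that deviations from the group means correlated over 0.1 in each pair across genes (0.61, 0.23 and 0.70). No label says what a number shares, and knockdown replicate 2 correlated better with control replicate 1 (0.44). Alternatives were the replicate block, 2 scalings, other priors, array weights, row choices and leaving out each array.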

Additional observations from a re-analysis of the deposited data

How the results depend on the processing

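With the replicate number as a block, which suits the samples only if equal numbers are pairs, 614 named genes passed in place of 158, 1 member in place of 0 (Ccne2) and 2 other replication and cell cycle genes in place of 1 (Ccnd2 and E2f8). The block changed no other call of a named cell cycle gene. Over all named genes 351 passed without the dimmest rows, 446 with a trended, robust prior, 1633 with array weights and 17 with all rows tested. Members past the threshold numbered 1 of 39 with the trended, robust prior (Mcm3), where 446 of 19938 named genes passed. With array weights 4 of 39 passed (Ccne2, E2f3, Rrm2 and Mcm3), where 1633 of 19938 named genes did. Weights were estimated gene by gene, a choice made after the default estimate stopped before converging. Of the other replication and cell cycle genes 7 passed with array weights (Asf1a, Ccnd2, E2f8, Fen1, Pold4, Prc1 and Spc25). With median centring or with all rows tested 0 passed (7 and 10 at an unadjusted p under 0.05 in limma). Leaving out 1 array at a time gave 0 to 291 named genes, 0 to 1 members and 0 to 2 other cell cycle genes, the highest each time without knockdown replicate 3 (where 0 named genes passed, 1510 to 1958 had an unadjusted p under 0.05 in limma). The medians of both lists moved by less than the spread between arrays in each alternative, and quantile normalization and the mean of a gene's rows changed no member's call. In 23 of 546 member values over the alternatives the sign differed from the reported one, none of them called, and those members had reported differences of 0.0533 or less in size. Signal over background was not analysed here.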
